A study of Mus musculus with 6 samples.

Results

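The genes described here encode the subunits of the proteasome and the proteins that assemble, activate or inhibit it. They were chosen by name, as the genes whose symbol is Psm followed by a letter from a to g and a number, without the 3 interferon-induced catalytic genes Psmb8, Psmb9 and Psmb10. The rule took 45 of the 34245 genes in the table. The name constitutive proteasome subunits fits 31 of them, the 14 genes of the 20S core and 17 genes of the 19S cap. The other 14 are a pair of tissue-restricted core subunits (Psma8 and Psmb11), 4 activators, 1 inhibitor and 7 assembly chaperones.

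RNA-seq was performed on 3 Dnmt3b+/- PTCL, peripheral T-cell lymphomas taken from the lymph nodes of terminally sick mice. These FVB/N mice carried a germline knockout of 1 Dnmt3b allele. Tumors 1, 2 and 3 are independent tumors of this single group. With a single group there was no contrast to test, and all values below are descriptions, given in each tumor and as mean with SD (n = 3). The unit is FPKM, fragments divided by the length of the merged exons of a gene and by the size of the library, and the library depths recovered from these values were 30726570, 18969988 and 20770928 reads.

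Dnmt3b itself, from 153, 150 and 133 reads, stood at 0.975, 1.55 and 1.25 FPKM. A gene total does not tell the intact allele from the deleted allele, so it does not check the genotype. Of 8 T-cell markers, 8 of 8 (Cd3d, Cd3e, Cd3g, Cd5, Cd8a, Cd8b1, Lck and Trac) were above 0.2 FPKM in every tumor. All 5 B-cell and all 5 macrophage markers passed this threshold too, so passing it does not check the T-cell label. The T-cell markers had summed levels of 1297, 1081 and 1424 FPKM. The lower sum of tumor 2 came from Cd8a (259, 122 and 218 FPKM) and Cd8b1 (435, 166 and 443 FPKM), whereas the other 6 markers were higher in tumor 2 than in tumor 1. RNA came from whole tumor samples, in which fewer cells of a type and less RNA per cell cannot be told apart. The tumors also differed in markers of other cells. Markers of pancreatic acinar cells and of stroma were highest in tumor 2, and those of cycling cells and 4 of 5 of macrophages in tumor 1.

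The proteasome degrades proteins that have been tagged with ubiquitin. Its 20S core is a barrel of stacked rings, in which outer alpha rings control entry and inner beta rings carry the protease sites, and the 19S cap binds ubiquitin, removes it, unfolds the substrate with a ring of ATPases and feeds it into the barrel. In lymphoid cells and under interferon, induced catalytic subunits take the place of the constitutive catalytic subunits in newly built cores, and the peptides such cores release feed antigen presentation.

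The proteasome was expressed in all 3 tumors. Above the threshold of 0.2 FPKM in every tumor were 43 of the 45 genes, against 36.7% of all symbols in the table, and the same 43 genes had a mean of at least 1 FPKM. The median over all 45 genes was 23.2, 18.5 and 21.5 FPKM (mean 21.1 ± 2.35 SD, n = 3), against 6.16, 5.40 and 5.04 FPKM over the 11190 genes with a mean of at least 1 FPKM. The 31 core and cap genes together took 0.515%, 0.332% and 0.377% of all FPKM in tumors 1, 2 and 3. These 43 genes held 145 to 13488 reads per gene and tumor.

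**Figure D1:**
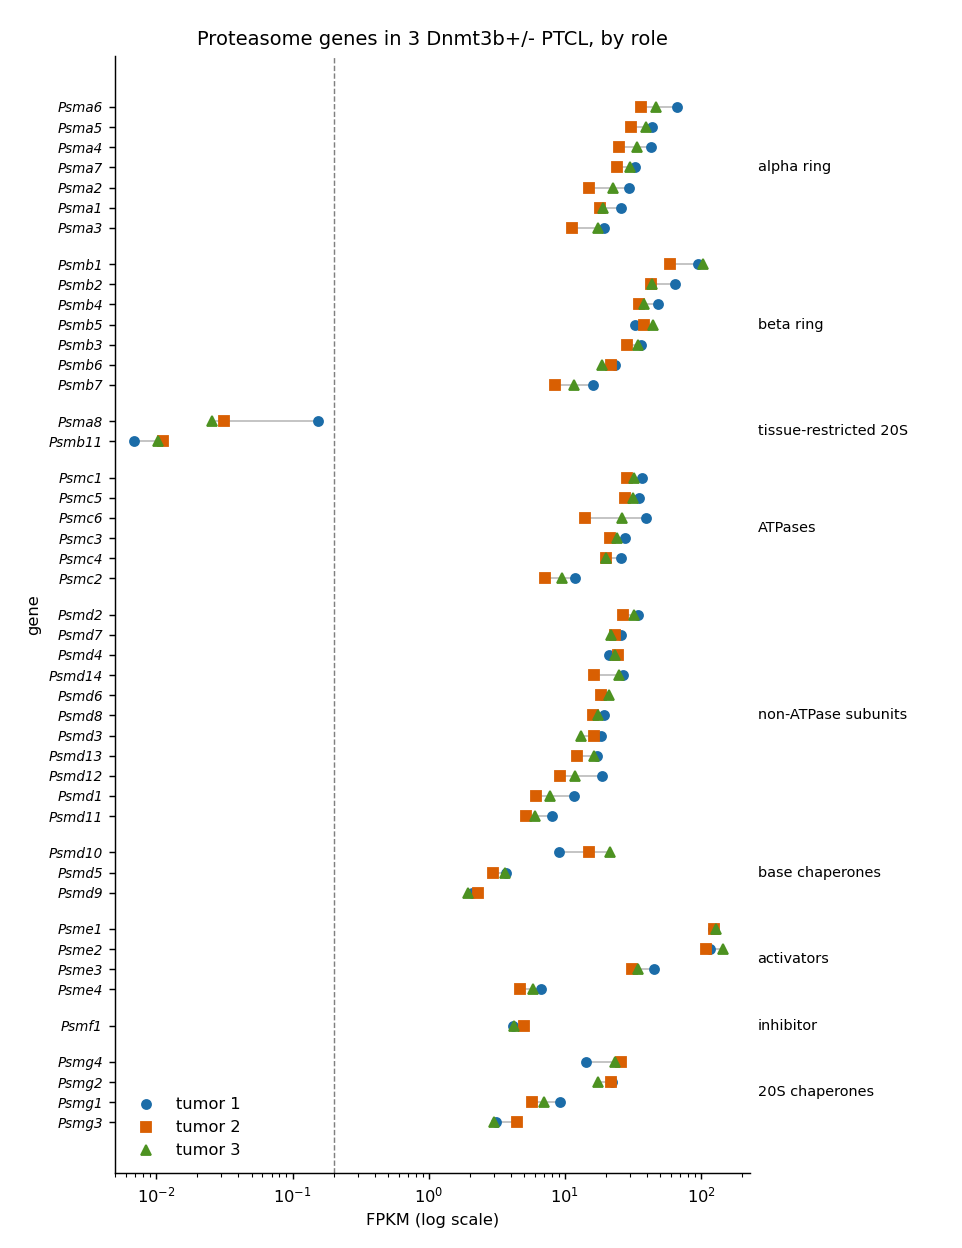
FPKM of each gene of the rule in Dnmt3b+/- PTCL 1 (circle), 2 (square) and 3 (triangle) on a log axis, grouped by role, with a dashed line at 0.2 FPKM and a grey line from the lowest to the highest tumor. The points of 43 genes lie to the right of the line, the points of Psma8 and Psmb11 to its left.

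The plot of all genes by role shows the 43 expressed genes spread from Psmd9 to Psme1, with the 3 tumors close together for most genes. Psma8 and Psmb11 lie apart from the rest at the left edge of this plot.

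The tumors differed in a shared way. Tumor 2 was the lowest of the 3 for 30 of the 43 expressed genes (69.8% against 38.3% of all genes), for 28 when each tumor was rescaled to the same FPKM sum (65.1% against 34.3%) and for 29 with median-of-ratios factors (67.4% against 36.98%). Tumor 1 was the highest for 32 of the 43 (74.4% against 50.6%), but this depended on the scaling, with 35 after rescaling to the same sum (81.4% against 60.5%) and 15 with median-of-ratios factors (34.9% against 36.9%). With those factors the share of tumor 1 was therefore near that of all genes. Tumor 2 was the highest for 5 genes (11.6% against 33.7%), for 5 after rescaling (11.6% against 30.7%) and for 9 with median-of-ratios factors (20.9% against 36.68%). Tumor 3 was the highest for 6 genes (13.95% against 15.7%), for 3 after rescaling (6.98% against 8.75%) and for 19 with median-of-ratios factors (44.2% against 26.4%). So which tumor ranked first was not settled by these data, whereas the last place of tumor 2 did not turn on the scaling.

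The order of tumor 1 first, tumor 3 next and tumor 2 last was shared by 27 of the 43 genes (30.2% of all genes with FPKM as deposited), by 27 after rescaling to the same sum (29.7% of all genes) and by 15 with median-of-ratios factors (23.6% of all genes). Under all 3 scalings, 26 genes were lowest in tumor 2, which is 60.5% of the members against 30.6% of all genes. They comprised 22 of the 31 core and cap genes, Psma2 to Psma7, Psmb1, Psmb3, Psmb4, Psmb7, Psmc1, Psmc2, Psmc3, Psmc5, Psmc6, Psmd1, Psmd2, Psmd8, Psmd11, Psmd12, Psmd13 and Psmd14, together with Psmd5, Psme3, Psme4 and Psmg1. Under none of the 3 scalings were Psmb5, Psmb6, Psmd3, Psmd4, Psmd7, Psmd9, Psmd10, Psme1, Psmf1, Psmg2, Psmg3 and Psmg4 lowest in tumor 2.

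Scaling moved all genes together. Median-of-ratios factors shifted the median log2 ratio of all genes by 0.17 for tumor 2 over tumor 1 and by 0.23 for tumor 3 over tumor 1, and rescaling to the same sum shifted these medians by -0.13 and -0.25. Differences between the core and cap genes and the median of all genes are free of this shift. On that footing, the 31 core and cap genes had a median log2 ratio of -0.30 for tumor 2 over tumor 1 and of -0.32 for tumor 2 over tumor 3, whereas tumors 3 and 1 differed by 0.0025. For tumor 2 over tumor 1 this difference was -0.60 in the alpha ring, the lowest of the role groups, and 0.41 in the 20S chaperones.

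**Figure D2:**
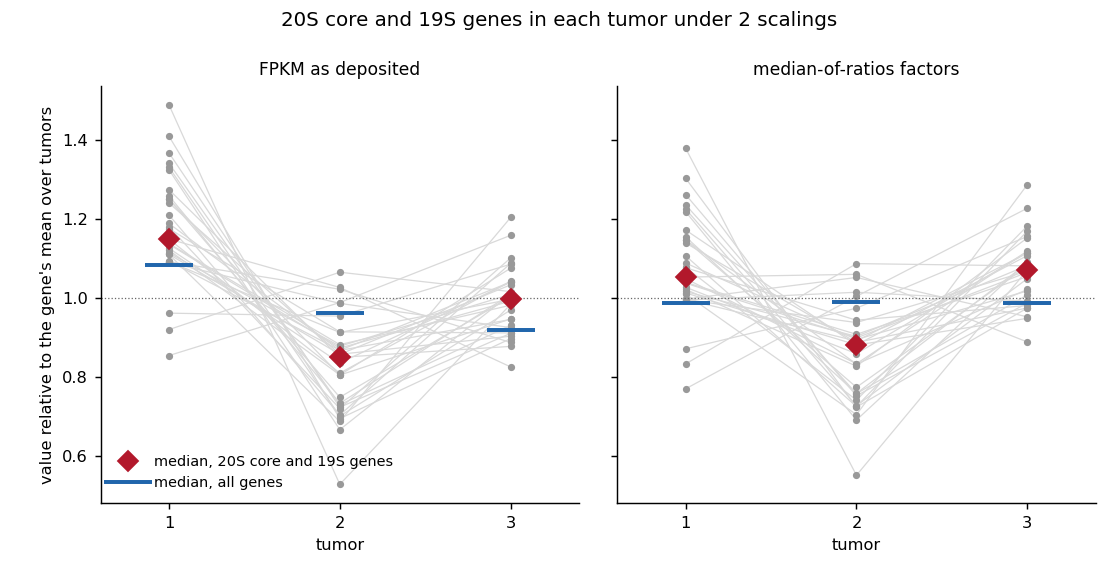
Level of each of the 31 core and cap genes relative to its own mean over the 3 tumors (grey points joined by lines), with FPKM as deposited (left) and after division by median-of-ratios factors (right); red diamonds are medians of these genes, blue bars medians of all genes. The red diamond of tumor 2 is the lowest on both sides (0.849 and 0.881), whereas that of tumor 1 stands above tumor 3 on the left (1.15 against 0.996) and slightly below it on the right (1.05 against 1.07).

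The plot of the core and cap genes under both scalings shows what holds and what does not. In tumor 2 most grey points lie below 1 on either side, and in tumors 1 and 3 the order of the medians turns over with the scaling. Markers of other cells differed in tumor 2 at the same time. The 7 pancreatic acinar markers summed to 78.7, 414 and 0.628 FPKM in tumors 1, 2 and 3 (0 of 7 above 0.2 FPKM in every tumor), led in tumors 1 and 2 by Ctrb1 (33.9 and 198 FPKM), with no read of Ctrb1 or Cpa1 in tumor 3. The 4 stroma markers summed to 5.20, 38.8 and 0.341 FPKM (1 of 4 above 0.2 FPKM in every tumor), with the highest mean for Col1a1 at 1.63, 15.5 and 0.315 FPKM. Both sums were highest in tumor 2 and below 1 FPKM in tumor 3. The 5 macrophage markers, all above 0.2 FPKM in every tumor, summed to 264, 89.9 and 32.7 FPKM, with the highest mean for Lyz2 at 215, 33.1 and 20.3 FPKM, whereas Cd68 (19.6, 51.2 and 9.27 FPKM) was highest in tumor 2. The order of the macrophage sum was thus carried by Lyz2 and did not hold for every marker. The 5 B-cell markers, 5 of 5 above 0.2 FPKM in every tumor, summed to 56.2, 13.7 and 104 FPKM and were led by Cd79a at 23.1, 7.31 and 49.0 FPKM. Tumor 2 thus had the lowest B-cell sum. The 4 markers of cycling cells, 4 of 4 above 0.2 FPKM in every tumor, summed to 96.0, 56.4 and 29.5 FPKM, with the highest mean for Mki67 at 38.7, 30.4 and 12.04 FPKM, although Top2a (42.8 FPKM) was higher in tumor 1. The part of these cells in the lower proteasome levels of tumor 2 was not tested.

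The alpha ring was expressed through all of its 7 genes. Psma1 to Psma7 form the outer rings of the core, whose ends close the channel until a cap or activator opens it. Their median was 32.6, 24.2 and 30.2 FPKM in tumors 1, 2 and 3 (mean 29.0 ± 4.32 SD). All 7 were highest in tumor 1, which held for 4 of 7 with median-of-ratios factors. All 7 were lowest in tumor 2, which held for 6 of 7 after rescaling to the same sum. Of all genes, 50.6% were highest in tumor 1 (36.9% with median-of-ratios factors) and 38.3% lowest in tumor 2 (34.3% after rescaling). Psma6 was the most abundant per kilobase of merged exons at 67.0, 36.5 and 46.5 FPKM. Psma3 was the least abundant at 19.3, 11.2 and 17.4 FPKM. Psma2 varied most between the tumors within this ring, at 29.7, 14.9 and 22.6 FPKM, a ratio of highest to lowest of 1.99 (95% counting interval 1.85 to 2.13). The means of Psma1, Psma4, Psma5 and Psma7 lay between those of Psma3 (16.0 FPKM) and Psma6 (49.99 FPKM). Psma3 and Psma5 have near-identical copies elsewhere in the genome over 27.4% and 78.8% of their transcripts, and their levels are uncertain for that reason.

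The beta ring held the widest range of levels in the core. Psmb1 to Psmb7 form the inner rings, and Psmb5, Psmb6 and Psmb7 carry the protease sites, whereas Psmb1, Psmb2, Psmb3 and Psmb4 have no catalytic activity. Median levels of the ring were 36.1, 35.0 and 38.2 FPKM (mean 36.42 ± 1.601 SD). Psmb1 was the most abundant core gene at 95.5, 59.2 and 104 FPKM. Psmb7 was the least abundant core gene at 16.0, 8.43 and 11.7 FPKM. Their means (86.1 and 12.02 FPKM) differed by 7.16-fold. Psmb1 was lowest in tumor 2 under all 3 scalings, and whether it was highest in tumor 3 or in tumor 1 turned on the scaling. The means of Psmb2, Psmb3, Psmb4, Psmb5 and Psmb6 lay between 21.3 and 50.1 FPKM. Alpha to beta ring medians had a ratio of 0.904, 0.692 and 0.790 in tumors 1, 2 and 3 per kilobase of merged exons, and of 0.807, 0.749 and 0.754, closer together, per kilobase of coding transcript.

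The 3 protease genes of the core did not move together. Psmb5, the chymotrypsin-like subunit, stood at 32.7, 37.8 and 44.3 FPKM and was highest in tumor 3 and lowest in tumor 1 under all 3 scalings. Psmb6, the caspase-like subunit, stood at 23.2, 21.7 and 18.9 FPKM and was lowest in tumor 3 under all 3 scalings. Psmb7, the trypsin-like subunit, was highest in tumor 1 and lowest in tumor 2 under all 3 scalings. These genes therefore had 3 different lowest tumors. Psmb5 has a near-identical copy over 99.8% of its transcript (99.0% identity) on chromosome 7, so its level is uncertain.

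Their interferon-induced partners were more abundant in every tumor. Psmb8, which replaces Psmb5, stood at 124, 166 and 145 FPKM. Psmb9, which replaces Psmb6, stood at 29.8, 55.1 and 39.9 FPKM. Psmb10, which replaces Psmb7, stood at 58.7, 81.3 and 70.5 FPKM. All 3 induced genes were highest in tumor 2, under all 3 scalings, where most core and cap genes were lowest. Of all genes, 33.7% were highest in tumor 2 with FPKM as deposited, 30.7% after rescaling to the same sum and 36.68% with median-of-ratios factors. Psmb8 made up 79.2%, 81.5% and 76.6% of the FPKM of its pair (mean 79.1% ± 2.42 SD). Psmb9 made up 56.2%, 71.7% and 67.9% of its pair (mean 65.3% ± 8.10 SD), with an exact binomial 95% interval of 54.6% to 57.8% in tumor 1. Psmb10 made up 78.6%, 90.6% and 85.8% of its pair (mean 85.0% ± 6.05 SD). Each induced share was highest in tumor 2, and being a ratio within a tumor it is the same under every scaling. For Psmb9 and Psmb10 the counting intervals of the 3 tumors did not overlap, and for Psmb8 those of tumors 1 and 2 overlapped (78.0% to 80.3% against 80.2% to 82.7%). The size of a share depends on exon length, and that of Psmb8 also on Psmb5, whose level is uncertain. Per kilobase of the longest coding transcript the mean shares were 89.0%, 68.4% and 71.8%, and each stayed highest in tumor 2 (90.4%, 74.6% and 81.0%).

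**Figure D3:**
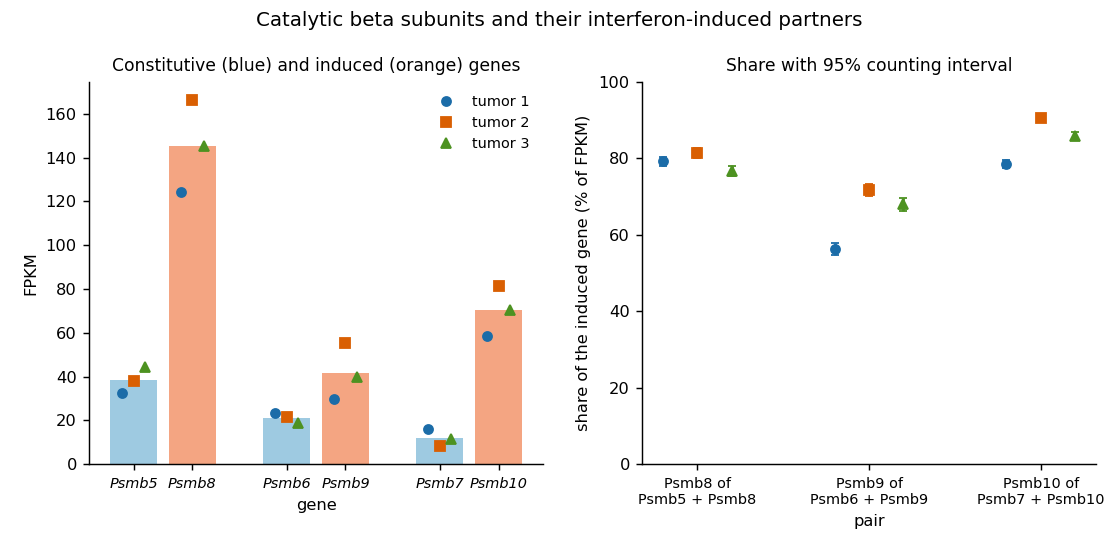
Left, FPKM of the constitutive catalytic genes (blue bars) and their induced partners (orange bars), with bars at the mean of the 3 tumors from 0 and symbols for each tumor. Right, share of each induced gene in the FPKM of its pair, in percent, with exact binomial 95% counting intervals; tumor 2 (square) has the highest share in each pair, at 81.5%, 71.7% and 90.6%.

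The plot of the catalytic pairs shows orange bars above blue bars throughout, with the smallest gap between Psmb6 and Psmb9. In tumor 1 the share of Psmb9 was the lowest of all 9 shares. Of 7 other interferon-induced genes, 6 were highest in tumor 2 under all 3 scalings, as were the induced catalytic genes. Over all genes the share highest in tumor 2 was 33.7% with FPKM as deposited, 30.7% after rescaling to the same sum and 36.68% with median-of-ratios factors. The interferon-inducible activators Psme1 and Psme2 were not highest in tumor 2 under any of the 3 scalings. Isg15, a ubiquitin-like modifier, stood at 26.04, 270.3 and 81.7 FPKM. Mx1, an antiviral GTPase, stood at 6.36, 86.6 and 23.8 FPKM. The transcription factor Irf1 (50.4, 76.5 and 57.0 FPKM) was less different between tumors. Among genes of antigen presentation, the peptide transporters Tap1 (46.7, 66.6 and 37.3 FPKM) and Tap2 (69.0, 97.8 and 58.1 FPKM) and the class I regulator Nlrc5 (32.0, 68.3 and 29.4 FPKM) were highest in tumor 2. B2m, the light chain of class I molecules, was the exception at 2327, 1573 and 1781 FPKM, with its lowest level in tumor 2 under all 3 scalings.

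The core subunits that belong to other tissues were at or near the limit of detection. Psmb11, the catalytic subunit of thymic cortical epithelium, had no read in any tumor, which allows up to 0.0230, 0.0372 and 0.0340 FPKM (3 reads) in tumors 1, 2 and 3. Foxn1, the defining gene of thymic epithelium, had no read in any tumor either, and the 5 markers of cortical thymic epithelium summed to 4.06, 1.88 and 0.873 FPKM (2 of 5 above 0.2 FPKM in every tumor), led in tumor 1 by Prss16 (2.42 FPKM), which had no read in tumor 2. Psma8, the alpha subunit of male germ cells, had 8, 1 and 0 reads, or 0.154, 0.0311 and 0.0256 FPKM, where the last value stands for no read and allows up to 0.0853 FPKM. Its counting intervals are wide (0.0664 to 0.303 FPKM in tumor 1 and 0.000788 to 0.173 FPKM in tumor 2), and whether the tumors differ was not tested. Among 5 male germ cell markers, Ddx4 and Tnp1 had no read in any tumor, 1 of 5 was above 0.2 FPKM in every tumor, and the sum was 3.36, 1.25 and 1.57 FPKM, led by Sycp1 at 3.01, 0.697 and 1.10 FPKM.

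The ATPases of the 19S cap were expressed as a set of 6. Psmc1 to Psmc6 form the ring that unfolds substrates and opens the core. Their median was 31.3, 20.7 and 25.01 FPKM (mean 25.7 ± 5.33 SD). All 6 were highest in tumor 1 (50.6% of all genes), which held for 3 of 6 with median-of-ratios factors (36.9% of all genes). In tumor 2, 5 of 6 were lowest (38.3% of all genes), the exception being Psmc4, against 6 of 6 with those factors (36.98% of all genes). Psmc1 had the highest mean per kilobase of merged exons at 37.0, 28.4 and 32.3 FPKM, although Psmc6 was higher in tumor 1. Psmc2 was the least abundant at 11.8, 7.08 and 9.48 FPKM. Psmc6 differed most between the tumors among all 43 genes with FPKM as deposited, at 39.4, 13.99 and 26.04 FPKM, a ratio of 2.82 (95% counting interval 2.62 to 3.03), with the highest value in tumor 1 and the lowest in tumor 2 under all 3 scalings. The means of Psmc3, Psmc4 and Psmc5 lay between 21.8 and 31.3 FPKM.

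The non-ATPase subunits were lower than the ATPases as a group per kilobase of merged exons, whereas per kilobase of coding transcript the ratio of ATPase to non-ATPase medians was near 1 in every tumor (1.04, 0.927 and 1.08). Their median was 18.7, 16.3 and 17.5 FPKM (mean 17.5 ± 1.20 SD), and with merged exons that ratio was 1.68, 1.27 and 1.43. Of these 11 genes, 9 were highest in tumor 1 (3 with median-of-ratios factors) and 8 were lowest in tumor 2 (7 with those factors). Over all genes these shares were 50.6% (36.9% with those factors) and 38.3% (36.98% with those factors). Psmd2, a scaffold of the base, was the most abundant per kilobase of merged exons at 34.6, 26.8 and 32.2 FPKM. Psmd11, a lid subunit, was the least abundant at 8.01, 5.16 and 6.07 FPKM, and 54.6% of its transcript has a near-identical copy elsewhere, which makes its level uncertain. Psmd12, also of the lid, was among the variable members at 18.6, 9.19 and 11.9 FPKM (ratio 2.03, interval 1.83 to 2.25). Psmd1, the other scaffold of the base, was likewise variable at 11.6, 6.13 and 7.71 FPKM (ratio 1.89, interval 1.75 to 2.04). Both had their highest value in tumor 1 and their lowest in tumor 2 under all 3 scalings.

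Other cap subunits were among the steadiest members with FPKM as deposited. Psmd4, a ubiquitin receptor, stood at 21.1, 24.5 and 23.3 FPKM (CV 0.0738) and was highest in tumor 2 under all 3 scalings. Psmd7, the lid partner of the deubiquitinase, stood at 25.9, 23.4 and 22.0 FPKM (CV 0.0833). The lid genes Psmd6 at 18.7, 18.5 and 21.1 FPKM (CV 0.0737) and Psmd8 at 19.2, 16.1 and 17.5 FPKM (CV 0.0896) were similar. With median-of-ratios factors Psmd7 and Psmd8 stayed low (CV 0.0122 and 0.0650), whereas Psmd4 and Psmd6 rose to 0.145 and 0.144. After rescaling to the same sum the reverse was seen, with Psmd4 and Psmd6 low (CV 0.0626 and 0.0498) and Psmd7 and Psmd8 at 0.169 and 0.160, so which of the 4 was steadiest turned on the scaling. Psmd14, the deubiquitinase that removes ubiquitin from substrates, had a mean of 22.6 ± 5.55 FPKM (SD), and the means of the lid genes Psmd3 and Psmd13 were 15.9 and 15.3 FPKM. The receptor (mean 23.0 FPKM) and the deubiquitinase of the cap thus had close mean levels, although their orders across tumors differed. Over the 17 cap genes the median was 21.1, 16.4 and 21.1 FPKM, and over the 14 core genes 34.4, 26.7 and 34.2 FPKM. Core to cap medians had nearly the same ratio in each tumor, 1.63, 1.63 and 1.62, per kilobase of merged exons, but not per kilobase of coding transcript (1.87, 1.58 and 1.52).

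FPKM compares genes only as far as their exon lengths are right. The deposited values divide by merged exons of all annotated transcripts, which were a median of 1.64 times and up to 3.36 times as long as the longest coding transcript of the same gene. Dividing by the coding transcript instead narrowed the range of the ATPases from 3.44-fold to 1.55-fold, from 26.7 FPKM for Psmc2 to 41.5 for Psmc6. It narrowed the range of the 17 cap genes from 5.07-fold to 3.52-fold. In the core it widened the range from 7.16-fold to 10.3-fold, from 21.8 FPKM for Psma3 to 225 for Psmb1. Psmb1 kept the top place in the core with either length, and Psmc2 the bottom place among the ATPases, whereas the bottom place in the core passed from Psmb7 to Psma3. Other places changed as well. The top place passed from Psma6 to Psma7 in the alpha ring, from Psmc1 to Psmc6 among the ATPases, from Psmd2 to Psmd4 among the non-ATPase subunits and from Psmg4 to Psmg2 among the 20S chaperones. The bottom place passed from Psmg3 to Psmg1 among the 20S chaperones and from Psmd9 to Psmd5 among the base chaperones.

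**Figure D4:**
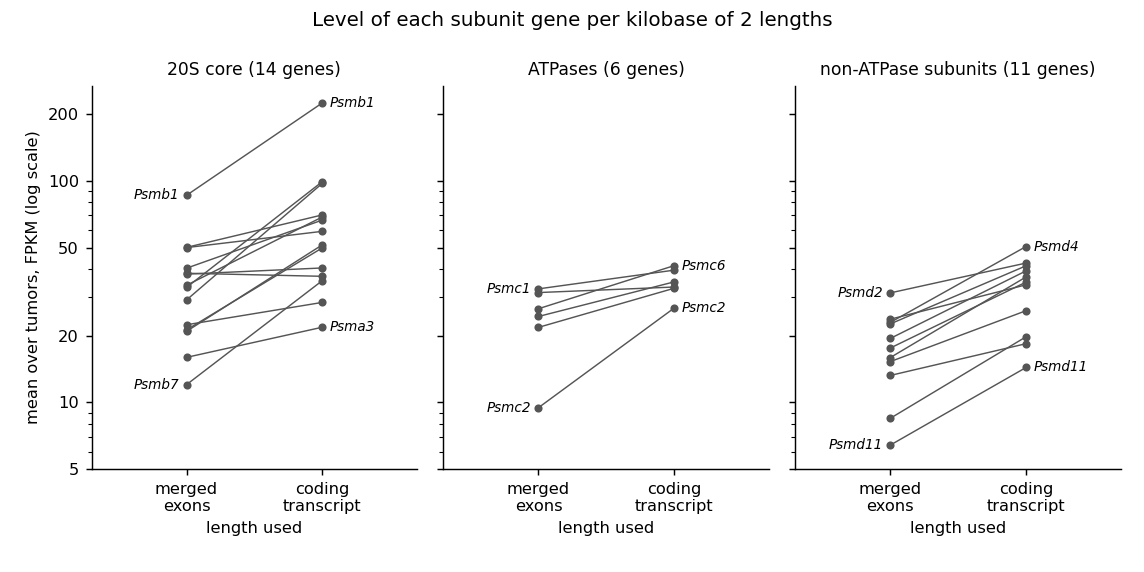
Mean level of each subunit gene over the 3 tumors on a log axis, per kilobase of merged exons (left points) and per kilobase of the longest coding transcript (right points), for 14 core genes, 6 ATPases and 11 non-ATPase subunits, with the highest and the lowest gene named. The ATPases draw together on the right, and Psmb1 stands at the top of the core on both sides.

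The plot of levels by both lengths shows most lines going up, since coding transcripts are shorter than merged exons for most genes. Comparisons of the same gene between tumors do not depend on the length used.

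The activators Psme1 and Psme2 had the highest means of all members, whereas Psme4 was below every core and cap gene. Psme1 and Psme2 encode the subunits of an interferon-inducible ring that opens the core without ATP, Psme3 a related nuclear ring, and Psme4 a large activator of the nucleus. Psme1 stood at 123, 124 and 128 FPKM and had the lowest CV of the 43 genes with FPKM as deposited (0.0240), but only the 11th lowest with median-of-ratios factors (0.103). Psme2 stood at 116, 109 and 145 FPKM and was highest in tumor 3 under all 3 scalings. Only 201 genes had a higher mean than Psme1. Psme3 stood at 44.8, 31.1 and 34.5 FPKM and was highest in tumor 1 and lowest in tumor 2 under all 3 scalings. Psme4 stood at 6.66, 4.70 and 5.87 FPKM and was lowest in tumor 2 under all 3 scalings. The ratio of Psme2 to Psme3 was 2.58, 3.49 and 4.22 (mean 3.43 ± 0.819 SD), and that of Psme1 to Psme3 was 2.74, 3.97 and 3.72. Both ratios were lowest in tumor 1. Psme2 has a copy, Psme2b on chromosome 11, that is 99.4% identical over 82.5% of its transcript, and Psme2b was itself listed at 10.46, 23.1 and 14.03 FPKM, so the level of Psme2 is uncertain. The inhibitor Psmf1, which binds the core, was low at 4.17, 5.01 and 4.24 FPKM and highest in tumor 2 under all 3 scalings.

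As groups, the assembly chaperones had lower medians than the subunits they help to assemble, which did not hold gene by gene. Psmg1 to Psmg4 build the alpha ring, and their median was 11.7, 13.7 and 12.2 FPKM. Psmg4 had the highest mean per kilobase of merged exons at 14.2, 25.8 and 23.4 FPKM, although Psmg2 was higher in tumor 1, and its lowest tumor was tumor 1 under all 3 scalings. Psmg3, which acts with Psmg4, was the least abundant per kilobase of merged exons at 3.13, 4.43 and 3.00 FPKM. Both were highest in tumor 2 under all 3 scalings, whereas Psmg1 (mean 7.27 ± 1.74 FPKM, SD) was lowest there and Psmg2 (mean 20.4 ± 2.53 FPKM, SD) was lowest in tumor 3. The base chaperones Psmd5, Psmd9 and Psmd10 guide the ATPase ring together, and their median was 3.66, 2.95 and 3.60 FPKM. Psmd10, also known as gankyrin, was their most abundant at 9.11, 15.1 and 21.5 FPKM (ratio 2.36, interval 2.08 to 2.68) and was highest in tumor 3 and lowest in tumor 1 under all 3 scalings. Psmd9 was the lowest of the 43 expressed genes per kilobase of merged exons, at 2.07, 2.31 and 1.93 FPKM, but not per kilobase of coding transcript (mean 5.87 FPKM against 5.60 for Psmd5), and it shares 25.5% of its exons with a gene on the opposite strand. The mean of Psmd5 was 3.41 ± 0.394 FPKM (SD).

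With FPKM as deposited, most members varied less between the tumors than the median gene. The median CV of the 43 genes was 0.1704, against 0.268 over all genes with a mean of at least 1 FPKM and 0.233 over the 4805 genes in the range of mean levels of the core and cap genes. Of the 43 genes, 34 lay below the all-gene median. A ratio of highest to lowest tumor of at least 1.5 was reached by 15 of the 43 (62.8% of all genes), by 25 after rescaling to the same sum (70.0% of all genes) and by 14 with median-of-ratios factors (60.6% of all genes). With FPKM as deposited this count came from tumors 1 and 2, since it was 15 without tumor 3 but 5 without tumor 1 and 5 without tumor 2. With FPKM as deposited, a ratio of at least 2 was reached by Psmc6, Psmd12 and Psmd10, and the list changes with the scaling. Psmc6 and Psmd12 were among the 5 genes with the highest CV under all 3 scalings. This ratio takes the highest and the lowest tumor after the values were seen, so it is at least 1 by construction, and its counting intervals do not allow for that choice. Counting intervals cover counting error only and not the variation between samples of 1 tumor.

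Genes that act with the proteasome were read beside it. Of 6 partner genes, 5 were lowest in tumor 2 under all 3 scalings, against 30.6% of all genes. Pomp, the maturation factor of the core, stood at 14.5, 9.68 and 13.3 FPKM. The deubiquitinases Usp14 (7.32, 3.12 and 4.505 FPKM) and Uchl5 (8.58, 4.295 and 7.86 FPKM) showed the largest differences. The small lid subunit Sem1 (18.1, 14.3 and 17.1 FPKM) and the adaptor AI314180, also called Ecpas (8.06, 6.32 and 7.23 FPKM), differed less. Adrm1, a ubiquitin receptor of the cap, was nearly equal at 10.7, 10.8 and 10.6 FPKM with FPKM as deposited. Paaf1 was not analysed here. Nfe2l1, the transcription factor that raises proteasome genes when degradation is impaired, stood at 11.5, 13.8 and 12.2 FPKM and was highest in tumor 2 under all 3 scalings. Ddi2, the protease that activates it, stood at 5.43, 6.11 and 6.41 FPKM. Nfe2l2, the related factor of the oxidative response, stood at 15.6, 11.6 and 12.05 FPKM and was highest in tumor 1 under all 3 scalings.

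Ubiquitin genes, the activating enzyme and Vcp did not share an order of the tumors. Ubb stood at 179, 137 and 120.3 FPKM and was highest in tumor 1 under all 3 scalings. Rps27a (267, 286 and 496 FPKM), which encodes ubiquitin fused to a ribosomal protein, was highest in tumor 3 under all 3 scalings. Uba1, the main ubiquitin-activating enzyme, stood at 79.4, 184 and 123 FPKM, and Vcp, which extracts tagged proteins from complexes, at 48.1, 40.5 and 45.3 FPKM. Uba1 was highest in tumor 2 under all 3 scalings, and Vcp was lowest there under all 3.

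Other protein complexes were set beside the proteasome. Tumor 2 was lowest for 12 of 14 core genes and 13 of 17 cap genes, and for 6 of 8 genes of the CCT chaperonin, 6 of 9 of the COP9 signalosome, 6 of 12 of the translation factor eIF3 and 15 of 76 cytosolic ribosomal protein genes. With median-of-ratios factors these counts were 12, 13, 4, 7, 5 and 12. Over all genes the share lowest in tumor 2 was 38.3% with FPKM as deposited and 36.98% with those factors. Among these complexes, the COP9 signalosome was thus also mostly lowest in tumor 2 under both scalings, and the CCT chaperonin with FPKM as deposited only. In contrast, eIF3 lay nearer to the share of all genes and the ribosomal protein genes below it. The ribosomal protein genes had medians of 328, 384 and 645 FPKM and a median CV of 0.410, against 0.223 for the core and 0.151 for the cap. The COP9 signalosome, whose build resembles the lid, had a median CV of 0.209 and medians of 12.15, 7.98 and 9.31 FPKM.

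**Figure D5:**
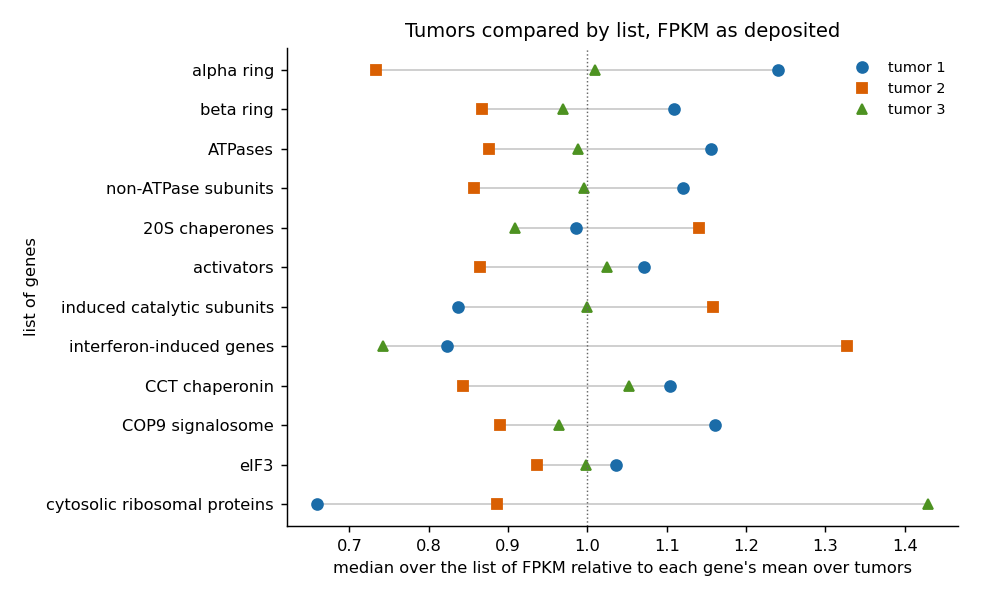
Median, over the genes of each list, of FPKM relative to the mean of the gene over the 3 tumors, with FPKM as deposited, for tumor 1 (circle), 2 (square) and 3 (triangle). Tumor 2 is lowest in the alpha ring (0.733), beta ring, ATPases and non-ATPase subunits and highest in the 20S chaperones (1.14), induced catalytic subunits (1.16) and interferon-induced genes (1.33), under all 3 scalings, whereas the lead of tumor 1 over tumor 3 in the beta ring, ATPases, non-ATPase subunits and activators turns over with median-of-ratios factors. As plotted, tumor 2 is also lowest in the activators, CCT chaperonin, COP9 signalosome and eIF3.

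The plot of the lists side by side shows the square of tumor 2 at the left for subunits and at the right for interferon-induced genes. The left place was not particular to the proteasome with FPKM as deposited. Tumor 2 was also lowest for the CCT chaperonin (0.843), the COP9 signalosome (0.890) and eIF3 (0.936). By list medians, constitutive subunits and induced catalytic subunits thus differed in the place of tumor 2, which did not hold for every gene, since Psmb5, Psmb6, Psmd3, Psmd4 and Psmd7 were not lowest there under any scaling.

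The members lie on 16 chromosomes, and there were 2 pairs of neighbours. Psmb5 and Psmb11 lie 7315 bases apart on chromosome 14 (chr14:54614120-54617995 and chr14:54625310-54629556), 1 expressed in every tumor and the other without a read. Psme1 and Psme2 lie 5912 bases apart on the same chromosome (chr14:55578123-55581529 and chr14:55587441-55591113), and both are among the most abundant members.

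Promoter sequences were read from RefSeq (build GRCm38.p6) as windows of 250 bases before to 50 bases after the annotated start, and 37 of the 45 genes matched a window. The other 8 were Psmb1, Psmb2, Psmb7, Psma8, Psmc3, Psmd3, Psmd7 and Psmg2. The letters TGACNNNGC, the core of the antioxidant type of element that factors of the Nfe2l family can bind, were found on either strand in 6 of 37 members (16.2%), Psmb5, Psmb6, Psmc6, Psmd12, Psmd9 and Psme4, against 13.99% of all genes with a window and 16.96% of those with a mean of at least 1 FPKM. That share is near the background. The letters GAAANNGAA, part of interferon-response elements, were found in 7 members (18.9%), against 9.76% and 9.19%. These members were Psmb3, Psmb4, Psmc2, Psmd4, Psmd9, Psme1 and Psmg4. The letters CCGGAAG of ETS factors were found in 14 members (37.8%), against 9.93% and 22.6%. The CCAAT box was found in 13 members (35.1%), against 41.1% and 42.6%, and the letters TATAAA in 3 members (8.11%), against 15.7% and 8.11%. No motif overlapped another in the 5 windows printed here. A match describes the letters and is not evidence of binding, and a missing match says only that these letters are not in the window. In CpG dinucleotides the members had a median of 19 per window, against 8 over all genes and 22 over expressed genes. Psmb11, which had no read, held 4, the fewest of the members, and Psma7 had 41, the most.

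The promoters of 5 members are shown because their genes mark the ends of the patterns above, a choice made with their values known. Other genes at these ends are not shown, among them Psma2, Psmd1 and Psmd10, whose windows do not hold TGACNNNGC. Psmb5 and Psmb6 are catalytic genes that were not lowest in tumor 2, Psmc6 and Psmd12 are variable cap genes that were lowest there, and Psme1 had the lowest CV with FPKM as deposited. Capitals mark TGACNNNGC (either strand) in the first 4 and GAAANNGAA (reverse strand) in Psme1. The windows are chr14:54617946-54618245 on the minus strand for Psmb5 and chr11:70525107-70525406 on the plus strand for Psmb6. Those of the others, on the plus strand, are chr14:45329574-45329873 for Psmc6, chr11:107479278-107479577 for Psmd12 and chr14:55578244-55578543 for Psme1. The Psme1 window lies within the span given above for this gene (chr14:55578123-55581529), so its start differs between the annotations used.
Psmb5: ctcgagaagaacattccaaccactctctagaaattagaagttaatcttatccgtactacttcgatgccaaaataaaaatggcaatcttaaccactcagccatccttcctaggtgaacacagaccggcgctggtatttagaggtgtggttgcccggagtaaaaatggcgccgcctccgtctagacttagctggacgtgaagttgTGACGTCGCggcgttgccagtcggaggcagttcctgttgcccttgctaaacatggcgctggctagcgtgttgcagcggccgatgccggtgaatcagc
Psmb6: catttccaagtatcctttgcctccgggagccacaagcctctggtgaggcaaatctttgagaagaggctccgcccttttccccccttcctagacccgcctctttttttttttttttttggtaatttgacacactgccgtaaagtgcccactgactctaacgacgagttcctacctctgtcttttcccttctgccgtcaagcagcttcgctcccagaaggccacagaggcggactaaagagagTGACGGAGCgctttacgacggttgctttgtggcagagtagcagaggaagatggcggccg
Psmc6: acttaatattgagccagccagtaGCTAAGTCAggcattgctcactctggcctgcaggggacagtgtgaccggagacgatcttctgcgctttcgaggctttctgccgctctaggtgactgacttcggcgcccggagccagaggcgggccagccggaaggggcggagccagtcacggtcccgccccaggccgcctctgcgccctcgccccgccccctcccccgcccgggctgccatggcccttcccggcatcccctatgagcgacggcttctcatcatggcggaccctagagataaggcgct
Psmd12: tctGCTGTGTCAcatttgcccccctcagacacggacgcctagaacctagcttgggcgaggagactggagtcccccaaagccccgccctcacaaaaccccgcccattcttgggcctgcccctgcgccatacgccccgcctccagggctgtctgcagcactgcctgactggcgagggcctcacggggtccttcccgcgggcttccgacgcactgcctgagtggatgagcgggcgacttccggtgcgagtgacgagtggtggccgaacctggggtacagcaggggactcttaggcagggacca
Psme1: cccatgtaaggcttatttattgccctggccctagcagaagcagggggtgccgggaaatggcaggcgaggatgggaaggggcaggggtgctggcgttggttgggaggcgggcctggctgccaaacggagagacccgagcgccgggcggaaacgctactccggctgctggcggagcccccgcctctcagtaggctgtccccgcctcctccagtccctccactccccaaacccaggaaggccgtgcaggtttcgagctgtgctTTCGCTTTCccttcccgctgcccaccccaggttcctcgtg
The marked letters begin 47 bases before the start in Psmb5, 9 before it in Psmb6, 227 before it in Psmc6 and 247 before it in Psmd12, and 11 bases after it in Psme1. Among the printed windows, Psmb5 and Psmb6 thus carry the letters close to the start and Psmc6 and Psmd12 near the far end. Psmd9 and Psme4 also hold TGACNNNGC, and its places there are not given here. Psmc6 and Psmd12 also hold CCGGAAG, 100 and 17 bases before the start. The orders of the tumors in these genes, 3 > 2 > 1 for Psmb5 and 1 > 3 > 2 for Psmc6 and Psmd12 under all 3 scalings, were not tested against these letters.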

How the data were processed

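RNA-seq of 3 Dnmt3b+/- PTCL was analysed, and bisulfite sequencing and control T-cell libraries were not used here. The authors aligned trimmed paired-end reads to mm10 with STAR (version not given in the sources used here) and deposited FPKM from SeqMonk, counting reads whose mapping quality reached 50, which leaves out reads that fit several loci. FPKM was used as deposited, and nothing was pooled over tumors. Depth and reads per gene were recovered from FPKM and merged exon lengths (GENCODE release M21), where a gene without a read holds the value of 0.9 read. In tumors 1, 2 and 3, 92.1%, 92.1% and 92.2% of the values came out within 0.01 read of a whole read or of this no-read value. The depth was set from the most frequent value, that of no read, so genes without a read fit by construction. Of the members, 38 gave whole reads with the annotated length. For 3 (Psma7, Psmb5 and Psma8) the only reads that came out whole, at another length, were taken, for 3 (Psmb1, Psmc6 and Psmg2) the nearest read, and Psmb11 had no read. Intervals are 95% exact Poisson or binomial and, like the limit of 3 reads for a count of 0, cover counting error only.

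CV, ratios and orders were taken over genes with a mean of at least 1 FPKM. For repeated symbols the gene with the highest mean was kept. Near-identical copies were searched with BLAST 2.17.0 (at least 98% identity over at least 20% of the transcript, alignments of at least 150 bases), and 5 members had one. Exons shared with another gene were found for 11 members, and whether counting used strand is not given in the sources used here. Values were computed with Python 3.11.15, pandas 2.3.3, NumPy 2.4.6 and SciPy 1.17.1, drawn with matplotlib 3.10.9 and checked on simulated data. Alternatives were rescaling to a sum of 1000000, median-of-ratios factors, leaving out each tumor, other thresholds and coding transcript length. Every member is named, with values in each tumor for catalytic, tissue-restricted, activator and inhibitor genes, the highest and the lowest of each role group and the 5 with the highest and the 5 with the lowest CV. The members and lists were chosen with earlier results of these data known. Some listed genes outside the rule are not reported here. No test was run, since there was 1 group of 3 tumors.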

Additional observations from a re-analysis of the deposited data

How the results depend on the processing

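Of 104 alternatives over 17 results, 77 stayed within the spread between tumors, or within 1.5 times for counts, and 27 moved further. Many of the 77 could not have moved. Shares and ratios within a tumor are the same under every scaling. A mean of tumor values also stays within their SD when a tumor is left out. The count of 77 is therefore not a measure of how firm the results are. Rescaling each tumor to a sum of 1000000 changes the unit, since the deposited sums were 188740 to 223767, so that the medians counted as moved (102.9 for all members, 154.8 for the core and 95.1 for the cap). It raised the median CV to 0.236 and the genes with a ratio of at least 1.5 to 25, and left 3 genes highest in tumor 3. Median-of-ratios factors gave 15, 9 and 19 genes highest in tumors 1, 2 and 3. With the core and cap genes alone the median was 23.8 FPKM. The median SD of log2(FPKM + 0.1) was 0.25, in log2 units and so not on the scale of a CV. With FPKM as deposited, 3 genes had a ratio of at least 2. Leaving out each tumor in turn gave a median CV of 0.140 to 0.231, 5 to 15 genes with a ratio of at least 1.5, 8 to 10 highest in tumor 2 and 9 to 33 highest in tumor 3. A count of genes highest or lowest in a tumor has no value without that tumor.

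Coding transcript length, chosen after seeing the data, gave medians of 34.4 for all members, 56.5 for the core and 33.8 for the cap, a core range of 10.3-fold, shares of 89.0% for Psmb8 and 71.8% for Psmb10, a Psme2 to Psme3 ratio of 5.68, and ratios of 1.66 for core to cap and 1.01 for ATPase to non-ATPase medians. Also chosen after seeing the data were the count of genes lowest in tumor 2 (28 to 35 of 43 over scalings and left-out tumors) and the 38 expressed members without a near-identical copy, of which 26 were lowest in tumor 2 and 29 highest in tumor 1. Apart from scaling, length and left-out tumors, the causes of these shifts were not tested. No paired analysis was possible because there was a single group of tumors. Depth limits Psma8 and Psmb11, whose levels lie at or below a few reads.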
